A study of Homo sapiens with 12 samples.

Results

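TENT5A, TENT5B and TENT5C are 3 members of the TENT5 family of poly(A) polymerases, called FAM46A, FAM46B and FAM46C in older annotations. Their transcripts were described here across 12 Illumina HT-12 v4 arrays of Huh7, a human line derived from a hepatoma. Members were all probes that the platform annotation pairs with these gene symbols, which gave 1 probe for each gene, 3 of the 47323 probes on the array. All 3 probes were detected on every array and passed the filter on dim probes, so they are 3 of the 10891 named genes tested. The family was selected on its measured values: TENT5C was among the genes called in both comparisons of erythroferrone with untreated cells, and TENT5A and TENT5B were taken as its relatives. The differences from untreated cells are therefore given as a description, with no test, and the comparison of the human with the mouse protein is tested.

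The first group of 4 arrays held Huh7 cells kept for 24 h with 10 µg/ml recombinant human erythroferrone (ERFE), the second held 4 arrays of cells given the mouse protein at the same dose and time, and the third held 4 arrays of untreated cells. ERFE, made by erythroblasts, binds bone morphogenetic proteins (BMPs) and lowers hepcidin, the liver hormone that keeps iron from leaving cells for the blood. No vehicle or control protein arm was analysed here, so ERFE and the addition of any protein cannot be told apart. Of the mouse ERFE arrays, 2 carry the title of replicate 3, and the names 3-A4 and 3-B4 used here add their title codes. All groups share the same cell line, and the labels do not say whether arrays stand for separate cultures. The p-values then reflect only how far these arrays scatter, and part of that may be technical.

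Noncanonical poly(A) polymerases add adenosines to mRNAs in the cytoplasm, and a longer tail is generally linked to a more stable and better translated message. TENT5 proteins act largely on mRNAs of secreted proteins at the endoplasmic reticulum (ER). TENT5C, often mutated in multiple myeloma, lengthens the tails of immunoglobulin mRNAs in B-lineage cells and is also known as an interferon-stimulated gene. TENT5A acts on type I collagen mRNAs in osteoblasts, and loss of it causes a form of osteogenesis imperfecta. In Xenopus, a TENT5A counterpart takes part in BMP-dependent ectoderm development. TENT5B is an active poly(A) polymerase described in human embryonic stem cells. TENT5D, the remaining family member, is mainly known from the testis.

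The promoters are shown to set the start region of TENT5C, the member that stood apart in treated cells, beside those of its relatives. RefSeq places TENT5C on chromosome 1 at 117606048 to 117628389, TENT5A on chromosome 6 at 81745730 to 81752681 and TENT5B on chromosome 1 at 27005020 to 27012850 (build GRCh38.p14). Each sequence below holds 250 bases before and 50 bases after the annotated start, read 5′ to 3′ on the gene's own strand: chr1:117605798-117606097 on the plus strand for TENT5C, chr6:81752632-81752931 on the minus strand for TENT5A and chr1:27012801-27013100 on the minus strand for TENT5B. All 3 members matched in the RefSeq promoter table of that build. Capitals mark the core of the TATA box, the CCAAT box and a GC-rich element described for SMAD1 and SMAD5, each spelled out after the sequences.
TENT5C: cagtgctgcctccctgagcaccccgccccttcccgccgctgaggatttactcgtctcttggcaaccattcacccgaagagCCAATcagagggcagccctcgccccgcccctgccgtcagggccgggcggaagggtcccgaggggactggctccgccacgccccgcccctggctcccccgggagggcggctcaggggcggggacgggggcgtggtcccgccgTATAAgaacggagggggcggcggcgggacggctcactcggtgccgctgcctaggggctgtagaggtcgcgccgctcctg
TENT5A: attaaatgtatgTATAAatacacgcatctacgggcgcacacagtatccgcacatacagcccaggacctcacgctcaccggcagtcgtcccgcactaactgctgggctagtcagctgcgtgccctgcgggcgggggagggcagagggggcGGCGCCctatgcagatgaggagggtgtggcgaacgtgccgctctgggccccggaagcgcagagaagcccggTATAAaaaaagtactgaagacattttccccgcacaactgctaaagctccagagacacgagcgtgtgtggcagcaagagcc
TENT5B: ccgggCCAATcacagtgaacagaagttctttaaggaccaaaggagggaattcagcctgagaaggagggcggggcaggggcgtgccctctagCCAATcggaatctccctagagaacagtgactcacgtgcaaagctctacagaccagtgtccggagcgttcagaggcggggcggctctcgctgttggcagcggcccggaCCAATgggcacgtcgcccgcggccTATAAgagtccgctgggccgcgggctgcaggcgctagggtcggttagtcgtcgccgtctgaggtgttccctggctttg

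Each window held the TATA box core, TATAA, shortly before the start, at position -29 in TENT5C, -30 in TENT5A and -28 in TENT5B, counted to the motif's first base. TENT5A held a further TATAA at -238. TATAA occurred on either strand in 20.4% of the 35116 promoters searched. On the gene strand it began between -30 and -28 in 723 of them, or 2.06%, a window set after these positions were seen. CCAAT lay at -170 in TENT5C and at -245, -159 and -52 in TENT5B, and was absent from the TENT5A window (34.6% of all promoters held it). The GC box GGGCGG of Sp factors, not capitalised, had 7 matches in TENT5C, 2 in TENT5A and 2 in TENT5B, and 45% of all promoters held it. The GC-rich SMAD1/5 element, GGCGCC, was found in TENT5A and neither of the others, at -101, where it overlaps a GGGCGG at -105 (19.2% of all promoters). Neither the palindromic SMAD3/4 element GTCTAGAC (0.202% of all promoters) nor the core of the interferon-stimulated response element (3.57%) matched in any of the 3 windows. The motifs were searched on both strands, and a match or its absence describes the letters of this window only. The TENT5C window was the richest in G and C of the 3, at 73.7% against 59.3% in TENT5A, 62.7% in TENT5B and a median of 58.7% over all promoters. A divergent transcript, TENT5C-DT, starts 278 bases before TENT5C and has no named probe on this array.

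The deposited signals had array medians from 139.5 to 186.3, and between 34.5% and 39.1% of probes were detected per array. The level of a gene is given as the log2 signal after background correction and quantile normalization. Markers of the labelled cell type were present: all 9 measured hepatoma markers, among them transferrin and transthyretin, were detected on all 12 arrays. Their mean log2 level was 13.04 to 13.34 on human ERFE arrays, 13.06 to 13.17 on mouse ERFE arrays and 13.09 to 13.16 on untreated arrays. Erythroid marker probes gave no tested gene, and of the 8 on the array those of ALAS2, EPB42, HBA1, HBB and HBG1 were detected on 0 arrays, AHSP on 3, and HBA2 and HBG2 on 2 each. Arrays differed in the mean log2 level of 6 genes, HLA-DRA, HLA-DPA1, HLA-DMA, HLA-DMB, HLA-DQB1 and CD74, together called MHC class II genes here. Of the 10 genes of this list on the array, CIITA, HLA-DRB1 and HLA-DPB1 were detected on 0 arrays and HLA-DOA on 1. The mean of the 6 stood apart on some arrays of every group. It was 6.22 to 7.76 with human ERFE, 5.84 to 8.49 with mouse ERFE and 5.49 to 8.78 in untreated cells. High values came from human ERFE replicates 1 and 3, mouse ERFE replicate 1 and untreated replicates 1, 2 and 3.

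TENT5C was higher with either ERFE protein than without, and the arrays of the treated groups did not overlap those of untreated cells. Its log2 level was 8.73, 8.57, 8.59 and 8.57 on the human ERFE arrays and 8.54, 8.93, 8.72 and 8.68 on the mouse ERFE arrays (replicates 1, 2, 3-A4 and 3-B4), against 8.26, 7.99, 8.003 and 7.85 on the untreated arrays. The lowest human ERFE array lay 0.31 above the highest untreated array, and the lowest mouse ERFE array lay 0.28 above it. The group means were 8.61 ± 0.08 with human ERFE, 8.72 ± 0.16 with mouse ERFE and 8.02 ± 0.17 in untreated cells (SD, n = 4 each). The log2 difference from untreated cells was 0.59 ± 0.10 with human ERFE (SE; 1.505-fold, 95% confidence interval 1.29 to 1.76) and 0.69 ± 0.10 with mouse ERFE (1.62-fold, 1.38 to 1.89). In these bulk samples a change in the share of cells with the transcript cannot be told apart from a change in RNA per cell.

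On the deposited linear scale the separation of TENT5C was narrower. The signals were 526, 560.3, 619.7 and 480.03 on human ERFE arrays and 646, 486, 499 and 462 on mouse ERFE arrays, against 479.1, 325, 350.4 and 405 on untreated arrays. The lowest human ERFE signal stood just above the highest untreated one, and the lowest mouse ERFE signal fell below it. Divided by the median signal of its own array, TENT5C read 3.24 to 3.79 with human ERFE, 3.11 to 3.49 with mouse ERFE and 2.27 to 2.89 in untreated cells. On that scale the treated and untreated arrays were again separate.

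**Figure D1:**
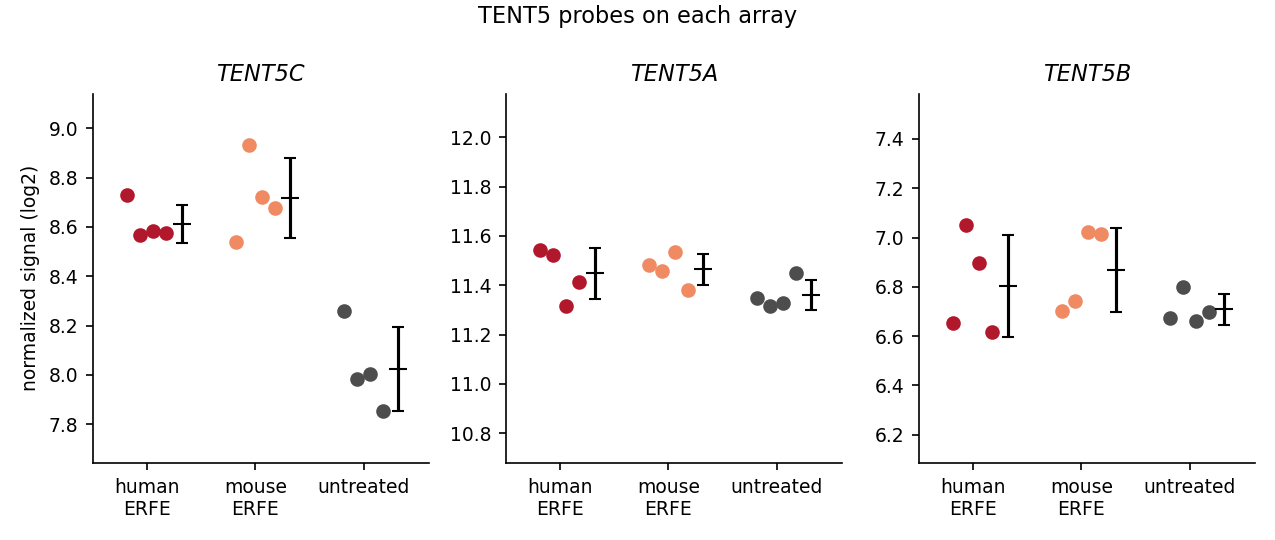
Log2 normalized signal (vertical axis) of TENT5C, TENT5A and TENT5B on each array, with human ERFE, mouse ERFE and untreated cells from left to right; points are arrays, and bars show the group mean and SD (n = 4 each). The TENT5C points of both ERFE groups, 8.54 to 8.93, lie above the untreated points, 7.85 to 8.26, while the groups overlap for TENT5A and TENT5B.

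Among the 10891 genes tested, 27 (0.248%) were called with human ERFE and 24 (0.22%) with mouse ERFE, at a limma adjusted p under 0.05. TENT5C was 1 of these genes in each comparison, ranked 22 by p with human ERFE (adjusted p = 0.0444) and 14 with mouse ERFE (adjusted p = 0.0147), and these calls are what it was selected by. With human ERFE the last gene inside the threshold was SH3TC1 (0.0489) and the first outside was WLS (0.0533). With mouse ERFE they were TFF2 (0.0443) and RAB13 (0.0604). Arrays without overlap were common by comparison, with 435 genes (3.99%) separating human ERFE from untreated arrays and 756 (6.94%) separating mouse ERFE from them. By size, the TENT5C difference was the 34th highest of all genes with human ERFE and the 22nd highest with mouse ERFE.

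The placing of TENT5C inside the threshold depended on single arrays. When each array was left out in turn, its log2 difference stayed between 0.53 and 0.67 with human ERFE, and its limma adjusted p was under 0.05 in 3 of 12 cases, those without untreated replicate 1, mouse ERFE replicate 1 or mouse ERFE replicate 2. With mouse ERFE the difference stayed between 0.62 and 0.77, and the adjusted p was under 0.05 in 9 of 12 cases. It was 0.0668 without untreated replicate 2, 0.065 without untreated replicate 3 and 0.0557 without mouse ERFE replicate 3-A4. The 12 cases include arrays of the group not compared. Leaving those out kept the difference at 0.59 with human ERFE and 0.69 with mouse ERFE, and changed only the shared spread and the adjustment. When the 2 mouse ERFE arrays titled replicate 3 were averaged into 1, TENT5C passed in neither comparison, with a limma adjusted p of 0.0643 with human ERFE and 0.0522 with mouse ERFE.

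TENT5A varied little, and its groups overlapped. Its log2 level was 11.54, 11.52, 11.32 and 11.41 with human ERFE and 11.48, 11.46, 11.54 and 11.38 with mouse ERFE, against 11.35, 11.32, 11.33 and 11.45 in untreated cells. Both ERFE groups held arrays above the highest untreated array and arrays below it. The log2 difference from untreated cells was 0.09 ± 0.08 with human ERFE (1.06-fold, 95% confidence interval 0.948 to 1.19) and 0.10 ± 0.08 with mouse ERFE (1.07-fold, 0.959 to 1.20). TENT5A was steady between arrays of a group: its pooled SD within groups was 0.08, and only 5.92% of the genes tested had a smaller one.

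TENT5B groups also overlapped. Its log2 level was 6.65, 7.05, 6.90 and 6.62 with human ERFE and 6.70, 6.74, 7.02 and 7.01 with mouse ERFE, against 6.67, 6.80, 6.66 and 6.70 in untreated cells. The ERFE arrays were split, with some at the untreated level and others above every untreated array: replicates 2 and 3 with human ERFE, and 3-A4 and 3-B4 with mouse ERFE. The log2 difference from untreated cells was 0.10 ± 0.11 with human ERFE (1.07-fold, 95% confidence interval 0.903 to 1.26) and 0.16 ± 0.11 with mouse ERFE (1.12-fold, 0.945 to 1.32). The pooled SD within groups was 0.16 for TENT5B and 0.14 for TENT5C, beside a median of 0.17 over all genes.

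**Figure D2:**
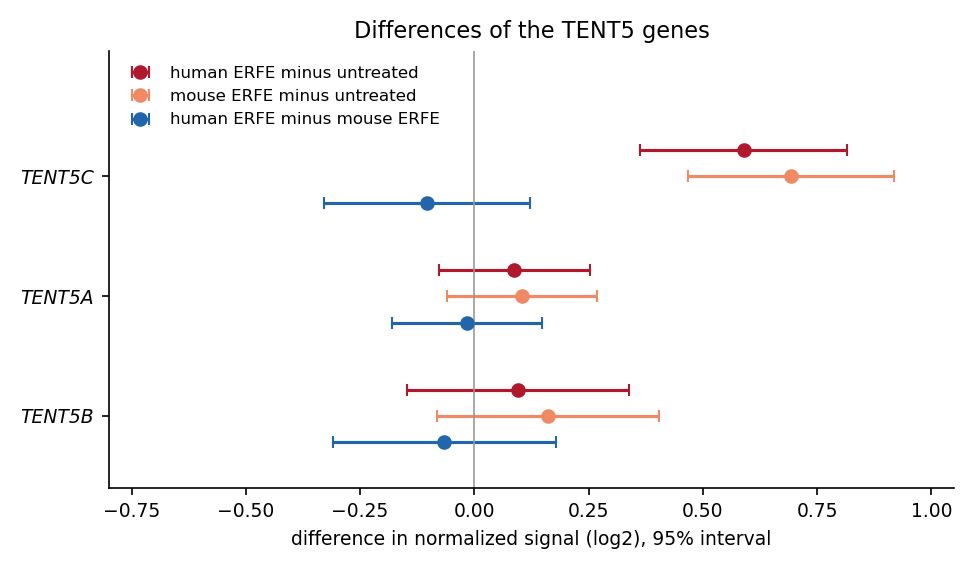
Log2 difference (horizontal axis) of TENT5C, TENT5A and TENT5B for human ERFE minus untreated, mouse ERFE minus untreated and human ERFE minus mouse ERFE; points are estimates from limma and bars are 95% confidence intervals. The TENT5C intervals against untreated cells run over 0.36 to 0.82 with human ERFE and 0.47 to 0.92 with mouse ERFE, a position that the choice of this gene by its calls fixed, and the intervals of human ERFE minus mouse ERFE span 0 for all 3 genes.

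The human and mouse proteins were compared directly. This contrast itself did not enter the choice of members, but the same arrays did. Choosing TENT5C for its calls with both proteins limits how far its 2 ERFE groups could differ, so its result here is not independent of the choice. TENT5C was 0.10 ± 0.10 lower on the log2 scale with human ERFE than with mouse ERFE, a fold of 0.931 with a 95% confidence interval of 0.796 to 1.09 (limma, adjusted p = 0.999). TENT5A differed by -0.02 ± 0.08 (0.882 to 1.11 in fold) and TENT5B by -0.07 ± 0.11 (0.807 to 1.13 in fold), each with a limma adjusted p of 0.999. None of the 3 members passed the test, as was the case for nearly all genes, since 1 of 10891 (0.00918%) was called and 264 (2.42%) had arrays that did not overlap. The order of the means was mouse ERFE, human ERFE, untreated for each member, but apart from TENT5C against untreated cells no neighbours in that order were separated beyond their spread. With arrays centred on their median the human minus mouse difference was 0.06 for TENT5C, 0.13 for TENT5A and 0.08 for TENT5B, but the median of all genes also moved, to 0.15. Relative to that median all 3 stayed negative, at -0.09 for TENT5C, -0.016 for TENT5A and -0.065 for TENT5B.

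Other features of the arrays were set beside TENT5C. Among arrays with high MHC class II levels, TENT5C averaged 8.66 with human ERFE (n = 2), 8.54 with mouse ERFE (n = 1) and 8.08 in untreated cells (n = 3), which gives log2 differences of 0.58 with human ERFE and 0.46 with mouse ERFE. Among arrays with low levels it averaged 8.57 with human ERFE (n = 2), 8.78 with mouse ERFE (n = 3) and 7.85 in untreated cells (n = 1). The differences there were 0.72 with human ERFE and 0.93 with mouse ERFE. The treated arrays were above the untreated ones within either set. Any split of the arrays gives that order, because no treated array overlapped an untreated one, so it is no check on the MHC class II level. When that mean MHC class II level was added to the model, the differences were 0.61 with human ERFE and 0.71 with mouse ERFE, with a limma adjusted p of 0.0757 with human ERFE, above the threshold of 0.05, and 0.0361 with mouse ERFE. These sets were formed after seeing the data.

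The titles open with a code of a letter and a number whose meaning is not given. Within number 1, which holds 1 array of each group, TENT5C was 0.47 higher with human ERFE and 0.28 higher with mouse ERFE than in untreated cells. It was 0.58 higher with human ERFE within number 3 and 0.85 higher with mouse ERFE within number 4, and number 2 holds no untreated array. Within letters A, B and C it was 0.45, 0.58 and 0.80 higher with human ERFE and 0.60, 0.61 and 1.08 higher with mouse ERFE. Each of these values had the same direction as the pooled one, which the lack of overlap between treated and untreated arrays fixed beforehand. TENT5C left the called genes when the code was fitted as a fixed block, but not when the number was fitted as a random block. With the number as a block its difference was 0.52 with human ERFE (limma adjusted p = 0.253) and 0.68 with mouse ERFE (adjusted p = 0.136). With the letter as a block it was 0.59 with human ERFE (limma adjusted p = 0.136) and 0.72 with mouse ERFE (adjusted p = 0.061). The random block gave 0.58 with human ERFE (limma adjusted p = 0.0459) and 0.69 with mouse ERFE (adjusted p = 0.0155).

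Immune cells and interferon responses are settings in which TENT5C is known, so their markers were read too. Of 8 B and plasma cell markers on the array, 3 were tested: MZB1, detected on 11 arrays, CD79A, on 8, and CD79B, on 5. JCHAIN, PAX5, POU2AF1 and TNFRSF17 were detected on 0 arrays, and MS4A1 on 1. The mean log2 level of the tested ones (CD79A, CD79B and MZB1) was 5.21 to 5.78 with human ERFE, 5.32 to 5.76 with mouse ERFE and 5.56 to 5.78 in untreated cells. The 13 interferon-stimulated genes tested had a mean log2 level of 6.02 to 6.96 with human ERFE, 6.10 to 7.36 with mouse ERFE and 6.005 to 7.35 in untreated cells. Their median log2 difference from untreated cells was -0.35 with human ERFE and -0.44 with mouse ERFE, beside 0.59 with human ERFE and 0.69 with mouse ERFE for TENT5C, and 0 of 13 were called by limma (at an unadjusted p under 0.05, 0 with human ERFE and 3 with mouse ERFE). The level of these genes went with that of the MHC class II genes: it was 6.86 to 7.36 on the 6 arrays high in MHC class II, of which 2 were human ERFE, 1 was mouse ERFE and 3 were untreated, and 6.005 to 6.20 on the other 6. The part of this in the medians, or in the TENT5C differences, was not tested.

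BMP/SMAD target genes were read because ERFE binds BMPs. Of 9 tested, limma called 5 lower with human ERFE and 4 with mouse ERFE (0.138% and 0.147% of all genes were called lower). BAMBI, HEY1, MSX1 and SMAD7 passed in neither comparison, and hepcidin (HAMP) was detected on 6 arrays. The mean log2 level of these 9 genes, including HAMP and ID1, was 8.56 to 8.66 with human ERFE, 8.62 to 8.72 with mouse ERFE and 9.26 to 9.37 in untreated cells, so it ran opposite to TENT5C between groups. Over deviations from the group means, which remove that difference between groups, the 12 arrays gave r = -0.73 and rho = -0.52 between the target mean and TENT5C. Without the 2 arrays farthest from the median of the target mean, untreated replicate 1 and mouse ERFE replicate 2, r was -0.36 over 10 arrays. The relation thus rests largely on those 2 arrays, and points within a group share a normalization. Over the same deviations of 12 arrays, r with the target mean was 0.65 for TENT5B, whose groups overlapped, and -0.07 for TENT5A.

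**Figure D3:**
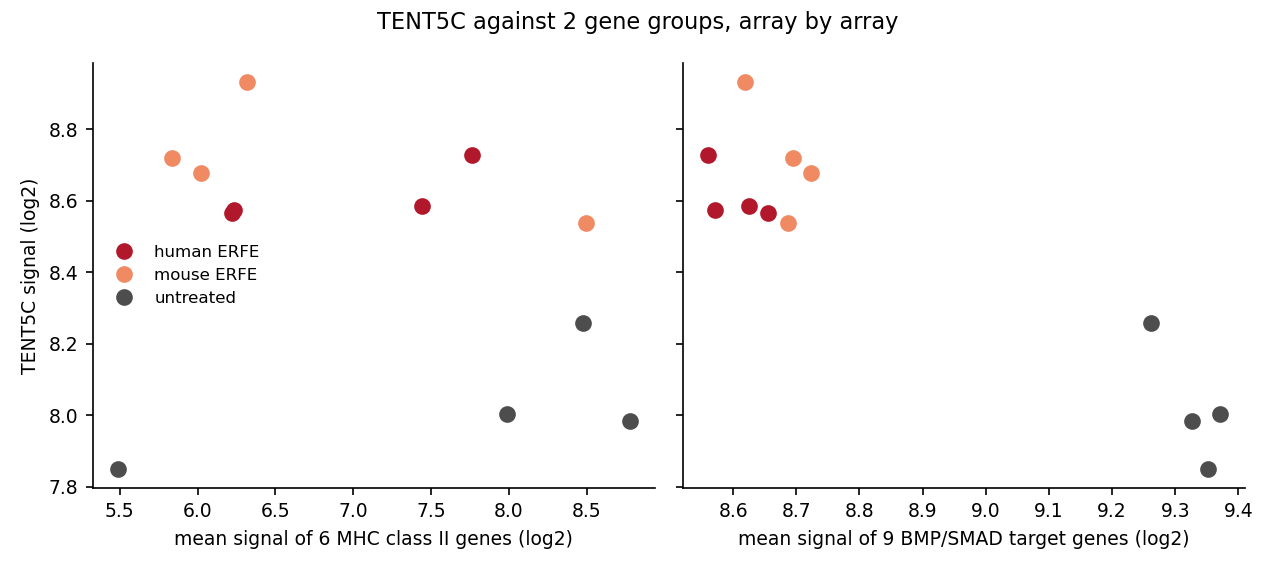
Log2 level of TENT5C on each array (vertical axis) against the mean log2 level of 6 MHC class II genes (left) and of 9 BMP/SMAD targets (right), with human ERFE, mouse ERFE and untreated arrays marked by colour. The groups separate along the BMP/SMAD axis, with untreated arrays at 9.26 to 9.37, and mix along the MHC class II axis.

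Other genes were described with 9 lists, 117 genes in all, of which 103 were tested. The lists cover the poly(A) tail and mRNA decay, TENT5 protein partners, ER translocation and secreted liver proteins. None of the 103 was called by limma in any comparison (27 and 24 of 10891 genes were called against untreated cells). At an unadjusted p under 0.05 there were 6 with human ERFE (5.83%, against 6.98% of all genes), 7 with mouse ERFE (6.8%, against 11.5%) and 3 between the proteins (2.91%, against 4.92%). The median log2 difference over the 103 genes was 0.02 with human ERFE and 0.00 with mouse ERFE, with a range of -0.36 to 0.53 with human ERFE and -0.31 to 0.39 with mouse ERFE. None of them differed from untreated cells by as much as TENT5C. That order was largely fixed beforehand, because TENT5C was chosen by its calls in these comparisons.

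Among the noncanonical poly(A) and poly(U) polymerases, 7 of 8 were tested and 0 were called. TUT4, which adds uridines to mRNAs and microRNA precursors, had log2 levels of 6.38, 6.68, 6.17 and 6.39 with human ERFE and 6.27, 5.91, 5.79 and 6.06 with mouse ERFE, against 5.97, 5.64, 5.99 and 5.89 in untreated cells. Its human ERFE arrays all lay above the untreated arrays and its mouse ERFE arrays overlapped them, but the difference of 0.53 ± 0.13 with human ERFE did not pass the test (limma, adjusted p = 0.235). With mouse ERFE it was 0.13 (adjusted p = 0.781). The noncanonical polymerases TENT4A and TENT4B, which can mix other bases into tails, stood at -0.07 and -0.03 with human ERFE and at -0.03 and 0.10 with mouse ERFE. MTPAP, the mitochondrial poly(A) polymerase, stood at -0.12 with human ERFE and -0.01 with mouse ERFE. TENT5D, the remaining TENT5 gene, was detected on 2 of 4 human ERFE arrays, 0 of 4 mouse ERFE arrays and 2 of 4 untreated arrays, so it was near background throughout. Of the nuclear poly(A) polymerases, PAPOLA was the 1 gene tested, at -0.09 with human ERFE and -0.01 with mouse ERFE.

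Lists of genes that remove, read or make the tail had median log2 differences from untreated cells near 0, and none of the genes named passed the test. The deadenylases and their adaptors (20 tested) had medians of -0.02 with human ERFE and 0.00 with mouse ERFE, with CNOT11, a subunit of the CCR4-NOT deadenylase complex, at -0.19 with human ERFE and -0.18 with mouse ERFE. TOE1, a nuclear deadenylase, stood at -0.04 with human ERFE and -0.31 with mouse ERFE, and PAN2, the catalytic subunit of another deadenylase, at 0.18 with human ERFE and 0.07 with mouse ERFE. The poly(A)-binding proteins and partners (9 tested) had medians of 0.02 with human ERFE and 0.00 with mouse ERFE. Among them PAIP2, an inhibitor of the cytoplasmic poly(A)-binding protein, stood at 0.17 with human ERFE and 0.13 with mouse ERFE, and LARP4, which binds tails and stabilises mRNAs, at -0.20 with human ERFE and 0.00 with mouse ERFE. The decapping and decay genes (11 tested) had -0.01 with human ERFE and 0.01 with mouse ERFE, with DCP1A, a decapping activator, at -0.36 with human ERFE and -0.29 with mouse ERFE and XRN1, the main cytoplasmic 5′ exonuclease, at -0.20 with human ERFE and 0.09 with mouse ERFE. The cleavage and polyadenylation machinery (15 tested) had medians of 0.05 with human ERFE and 0.03 with mouse ERFE, with NUDT21, which influences the choice of poly(A) site, at 0.15 with human ERFE and 0.27 with mouse ERFE and CSTF2T, a cleavage stimulation factor subunit, at 0.17 with human ERFE and 0.39 with mouse ERFE. Over all 9 lists the smallest adjusted p was 0.235 with human ERFE and 0.274 with mouse ERFE.

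Genes for protein partners of TENT5, for ER translocation and for secreted liver proteins had medians near 0 as well. The 4 protein partners had medians of -0.07 with human ERFE and -0.05 with mouse ERFE. FNDC3B, an ER-bound partner, stood at 0.02 with human ERFE and 0.08 with mouse ERFE. BCCIP and PLK4 stood at -0.12 and -0.10 with human ERFE and at -0.13 and -0.08 with mouse ERFE. The ER translocation genes (19 tested) had medians of 0.03 with human ERFE and 0.02 with mouse ERFE, with SSR2, a subunit of the translocon-associated protein complex, at 0.26 with human ERFE and 0.27 with mouse ERFE and SRP14, a subunit of the signal recognition particle, at 0.19 with human ERFE and 0.21 with mouse ERFE. The secreted liver proteins (17 tested) had medians of 0.07 with human ERFE and 0.00 with mouse ERFE, with fibrinogen alpha (FGA) at 0.18 with human ERFE and 0.24 with mouse ERFE and transthyretin (TTR) at 0.14 with human ERFE and -0.07 with mouse ERFE. Apolipoprotein B (APOB) stood at 0.26 with human ERFE and 0.16 with mouse ERFE, and alpha-1 antitrypsin (SERPINA1) at 0.03 with human ERFE and -0.17 with mouse ERFE. An array signal reports the amount of a transcript and not the length of its tail, so tail length was not measured.

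**Figure D4:**
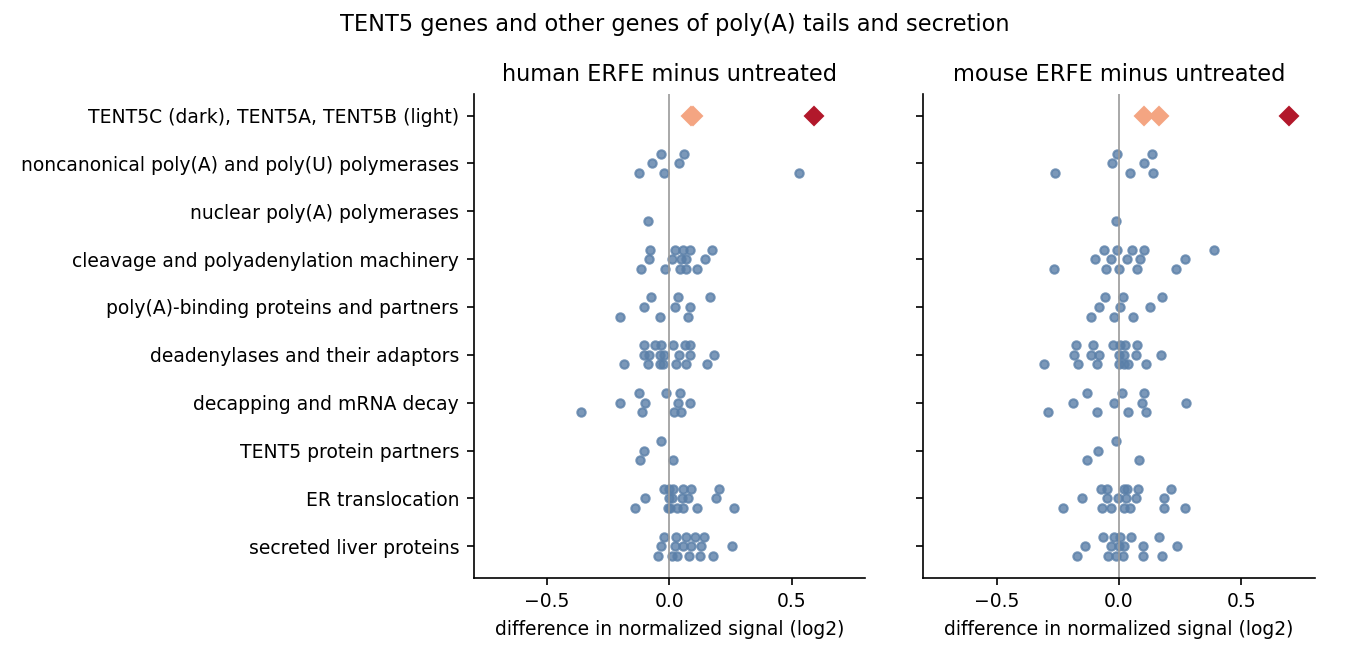
Log2 difference (horizontal axis) of each tested gene of the 9 tail and secretion lists, human ERFE minus untreated on the left and mouse ERFE minus untreated on the right; each point is a gene, and diamonds in the top line are TENT5C (dark), TENT5A and TENT5B (light). The 103 list genes lie between -0.36 and 0.53 with human ERFE and between -0.31 and 0.39 with mouse ERFE. All lie below the TENT5C differences of 0.59 with human ERFE and 0.69 with mouse ERFE. The choice of TENT5C by its calls largely fixed that order.

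The genes whose pattern was most like that of TENT5C were ranked by Pearson's r of the log2 level over the 12 arrays, which includes the difference between groups. NR0B2, a nuclear receptor that represses bile acid synthesis, came first (r = 0.93) and was 0.57 higher with human ERFE and 0.66 higher with mouse ERFE than in untreated cells. It was followed by the trefoil peptide TFF2, SLC17A2 and C6orf47 (each r = 0.91), the cadherin CDH6 and the trefoil peptide TFF3 (each 0.90), and WLS, which carries Wnt proteins to the cell surface (0.89). DHX32 and PLPPR1 (each 0.88) and OVGP1 (0.87) completed the 10 nearest. Over deviations from the group means, the same genes gave r between 0.00 for TFF3 and 0.79 for CDH6, so part of the likeness lies in the group means alone.

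The patterns most opposed to TENT5C were those of TBX2, a T-box transcription factor (r = -0.95), and CHST3, a chondroitin sulfotransferase (-0.94). TBX2 was 1.20 lower with human ERFE and 1.26 lower with mouse ERFE. SLC29A3 and RAB31 (each -0.93) and the homeobox factor CDX2 (-0.92) came next. For TENT5A the nearest genes were C1RL-AS1 (0.92), WDR11 (0.88) and CD3D (0.86), and for TENT5B they were SLC9A8 (0.87), FILIP1L (0.86) and ITGAL (0.84). C1RL-AS1 and ITGAL were dim, with mean log2 levels of 5.24 and 5.17. Between the members, r over 12 arrays was 0.50 for TENT5A with TENT5C, 0.33 for TENT5B with TENT5C and 0.18 for TENT5A with TENT5B. Over deviations from the group means these were -0.04, -0.17 and -0.07, all close to 0. With 10891 genes ranked over 12 arrays, high values of r are found by the ranking itself, and they are given as a description.

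**Figure D5:**
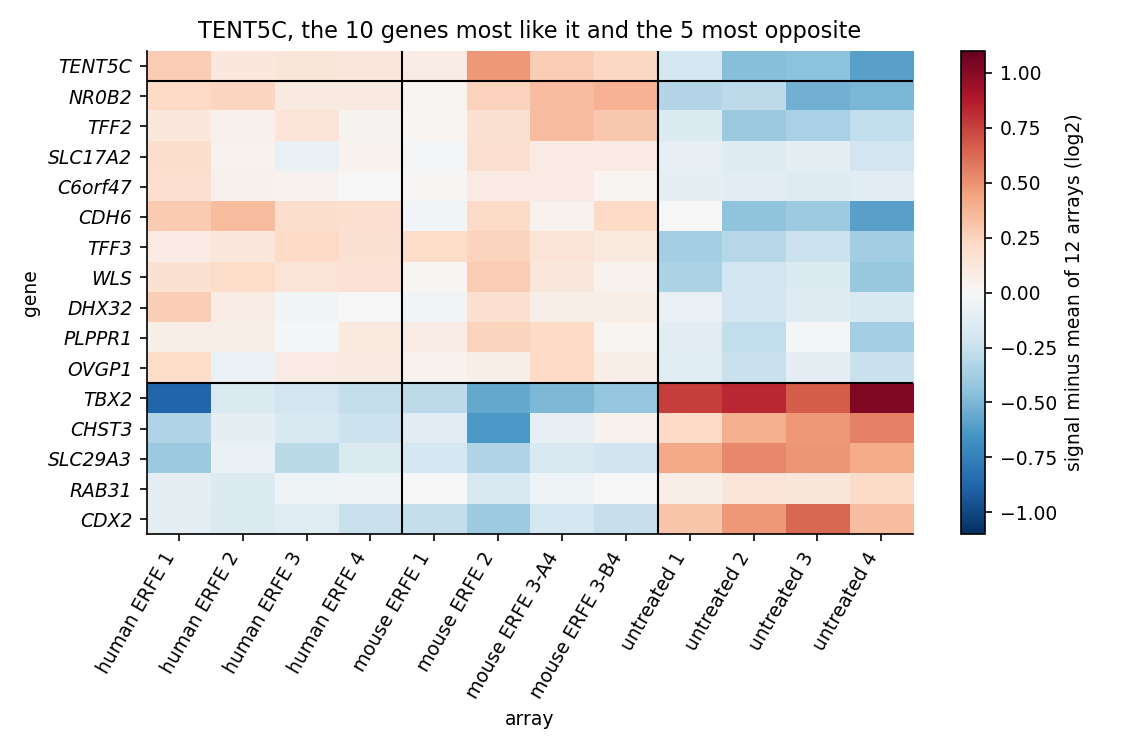
Log2 level minus the gene's mean over 12 arrays (colour) for TENT5C, the 10 genes with the highest and the 5 with the lowest Pearson's r to it; columns are arrays in the order human ERFE, mouse ERFE, untreated. TENT5C runs from -0.60 on an untreated array to 0.48 on a mouse ERFE array, and TBX2 runs the other way.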

How the data were processed

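The signal intensity of each probe and its detection p-value were deposited by the authors for 12 Illumina HT-12 v4 arrays, and the intensity is linear, as its values show. Lumi and limma are named without versions in the submitters' processing notes. Both other deposited tables, 1 of them called normalized, were exactly equal to the raw intensities, with no tolerance (567876 of 567876 values each). Probe symbols came from the platform annotation (30113 probes with 1 symbol, 8 with several, 17202 with none) and gene positions from RefSeq, GRCh38.p14.

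Signals were corrected and quantile normalized with the neqc function (limma 3.58.1, statmod 1.5.0 and R 4.3.3), which inferred the negative controls from detection p-values and used an offset of 16. A probe was kept if its detection p was below 0.05 on 4 or more of the 12 arrays (18646 probes, 14152 of them named), with the brightest probe per gene (10891 genes). A linear model of the 3 groups was fitted by lmFit and moderated by eBayes, with 9 residual degrees of freedom and 3.56 prior ones, with Benjamini-Hochberg adjustment over all genes and two-sided tests. The pipeline was tested on simulated data. The number of arrays, not a depth, limits the precision.

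The members and gene lists were chosen with earlier results of these data known. Members were named in full. In each list, genes could be named if called in any comparison or among the 3 with the smallest p against untreated cells, and the genes most like a member were taken by Pearson's r over the 12 arrays (10 highest and 5 lowest for TENT5C, 5 highest for the others). Probe and protein sequences were not used here.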

Additional observations from a re-analysis of the deposited data

Results flagged for a closer look

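Within the human ERFE group, TENT5C on replicate 1 (log2 level 8.73) lay apart from the other 3 arrays (8.57, 8.59 and 8.57): its gap to the nearest array was 0.880 of the group's whole range. The range itself was narrow, and all 4 arrays lay above every untreated array. Of 9 sets of arrays examined (3 genes in 3 groups) this was the 1 that stood out, and chance alone marks about 1 in 20 such sets.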

How the results depend on the processing

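The TENT5C differences stayed positive under all 30 alternatives, from 0.40 to 0.67 with human ERFE and from 0.43 to 0.77 with mouse ERFE. The limma adjusted p was under 0.05 in 10 of 30 with human ERFE (highest 0.253) and in 21 of 30 with mouse ERFE (highest 0.198). These p-values belong to the comparisons that TENT5C was selected by, so they describe how steady its call was and are no test. Without background correction the TENT5C log2 differences were 0.40 with human ERFE and 0.48 with mouse ERFE. With the raw signal over the array median, chosen after seeing the data, the mouse ERFE difference of TENT5C was 0.43. TENT5A with human ERFE was 0.17 under median centring and 0.17 with the raw signal over the array median. Against untreated cells the other members stayed positive under the alternatives run, but their size was not steady. With human ERFE, leaving out arrays gave 0.057 to 0.131 for TENT5A, and 0.013 (without human ERFE replicate 2) to 0.158 (without human ERFE replicate 4) for TENT5B. With mouse ERFE it gave 0.080 to 0.134 for TENT5A and 0.111 to 0.217 for TENT5B.

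Between human and mouse ERFE the sign turned under median centring (TENT5A 0.13, TENT5B 0.082, TENT5C 0.057) and with the raw signal over the array median (0.14, 0.050, 0.057), where the median of all genes was 0.15 and 0.10. Relative to that median only TENT5A with the raw signal over the array median was positive (0.037). TENT5B stood at -0.065 and -0.055, and TENT5C at -0.09 and -0.05. TENT5A was 0.021 with the title number as a block, and from -0.047 to 0.027 when arrays were left out in turn.

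The number of genes called with human ERFE (27; 12 higher, 15 lower) was 6 under median centring (1 higher, 5 lower), 9 with the raw signal over the median (3 higher, 6 lower), 13 with only the groups compared, 5 and 15 with the title number or letter as a block, 17 with MHC class II as a covariate, and 11 to 52 with arrays left out. With mouse ERFE (24; 8 higher, 16 lower) it was 4 under median centring (0 higher, 4 lower), 16 with the raw signal over the median (0 higher, 16 lower), 77 without background correction, 38 with an offset of 50, 48 with probes detected on all arrays of a group, 65 with trend and robust, 63 with array weights, 13 with the replicate 3 arrays averaged, 0 and 8 with the title number or letter as a block, and 8 to 156 with arrays left out; the highest counts, 52 and 156, came without untreated replicate 4. Between human and mouse ERFE (1) limma called 0 with only the groups compared and 0 with the title number as a block. At an unadjusted p under 0.05, the counts behind these 0 values were 1026 with mouse ERFE, and 497 and 749 between the proteins. The cause was not tested.

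Of 12 same-numbered pairs of samples, 2 had a correlation of deviations above 0.1 (-0.32 to 0.33). Pairs with different numbers were not compared, so whether replicate numbers pair the samples cannot be told. With the replicate block, 13 genes were called with human ERFE and 58 with mouse ERFE, and TENT5C was 0.59 higher with human ERFE (limma adjusted p = 0.138) and 0.67 higher with mouse ERFE (adjusted p = 0.047).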
